A study of Mus musculus with 10 samples.

Results

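Genes that platelets and megakaryocytes use were examined in sorted hematopoietic stem cells (HSCs) of mice with and without *Cited2*. A list of 32 such genes was set by symbol, from receptors of the platelet surface to granule proteins and enzymes of thromboxane synthesis. Of these, 31 had a row among the 26146 genes of the count table, and *Bin2* was not analysed here. Of the 31, 29 had enough counts to be tested, while *Gp6* and *Myl9* did not. RNA came from bulk LSKCD48-CD150+ cells of 10 mice, described as 1 library per mouse. The 5 control mice (Cited2CTL, labelled wildtype, libraries WT1 to WT5) carried floxed *Cited2* alleles (Cited2fl/fl) without Cre. The 5 Cited2CKO mice (libraries KO1 to KO5) were Cited2fl/fl;Vav-iCre, in which the *Vav* promoter drives Cre throughout the hematopoietic system. All were on the C57BL/6J background and aged 8 to 12 weeks. CITED2 is a transcriptional co-regulator that binds CBP and p300.

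HSCs and megakaryocytes share part of their expression program. A subset of HSCs expresses *Vwf* and *Itga2b* (CD41) and gives rise mainly to platelets. Transcripts of platelet genes in sorted HSCs can therefore reflect platelet priming, although bulk RNA does not show which cells held them. In platelets themselves, the GPIb-IX-V complex binds von Willebrand factor, integrin αIIbβ3 binds fibrinogen, thrombin receptors and thromboxane trigger activation, and α-granules release platelet factors. The comparison addressed whether HSCs without *Cited2* held more or less of this program.

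In brief, no member was called in either direction by edgeR's quasi-likelihood test (adjusted p under 0.05 and fold change above 20%), against 0.226% of all 14165 tested genes. The members with the smallest p were the thrombin receptor gene *F2r*, *Rab27b*, which acts in granule secretion, and the protein kinase C substrate *Plek*. All were higher in Cited2CKO HSCs, by 0.46, 0.61 and 0.40 on the log2 scale. DESeq2's Wald test called these 3 (10.3% of tested members, against 2.43% of all genes it tested). The receptors that bind von Willebrand factor and fibrinogen, *Vwf* itself and the platelet chemokine genes *Pf4* and *Ppbp* had no unadjusted p under 0.05. Of platelet genes outside the list, *Selp*, *P2ry1* and *Tpm4* rose and were called by edgeR.

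The libraries themselves limit these statements. *Cited2* was measured at 163 ± 42.7 CPM (counts scaled to a normalized library total; SD, n = 5) in Cited2CTL and at 3.80 to 8.30 CPM in 4 Cited2CKO libraries, but the library labelled KO3 had 120.1 CPM. The log2 fold change of *Cited2* was -2.51 with KO3 (adjusted p = 0.328, edgeR) and -4.92 without it (1.82e-06), and KO3 was kept in its labelled group. *Xist*, transcribed from the inactive X chromosome, was between 1250 and 1320 CPM in WT2, WT4, KO2 and KO3. The other 6 libraries had Y-linked transcripts instead. KO2 held both (*Xist* 1310 CPM, sum of *Ddx3y*, *Eif2s3y*, *Kdm5d* and *Uty* 329 CPM), although each library is described as from 1 mouse, and the labels give no sex. Total counts were 3058690 to 4548795 in Cited2CTL and 3500215 to 4315029 in Cited2CKO libraries. All 10 HSC marker genes that were checked passed the filter on low counts, with summed CPM of 1710 to 2000 and 1570 to 1840. Endothelial markers are relevant because endothelium also makes *Vwf*, *Thbs1* and *F2r*. Over 8 genes they summed to 24, 23, 57, 28 and 29 CPM in WT1 to WT5. In KO1 to KO5 the sums were 50, 45, 58, 43 and 29 CPM. WT1, WT2, WT4 and WT5 thus lay below KO1 to KO4, while WT3 and KO5 did not follow this split. At an unadjusted p under 0.05 *Kdr* was higher and *Cldn5* lower in Cited2CKO (adjusted p = 0.33 and 0.379, edgeR). *Cdh5*, *Plvap* and *Lyve1* were below the filter. The part of endothelial cells in the results below, including *F2r*, was not tested.

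Promoter sequence is shown first for 6 members. *F2r*, *F2rl2* and *Plek* are among the 5 members whose mean was higher in Cited2CKO HSCs at an unadjusted p under 0.05, although none was called by edgeR. Of these 5, *Rab27b* had no promoter sequence available and that of *Ltbp1* is not shown. *Gp1ba*, *Gp5* and *Gp9*, which encode subunits of the GPIb-IX-V complex, are shown as classical megakaryocyte genes without such a difference. The windows are from RefSeq (GRCm38.p6), begin 250 bases before the transcription start, are written 5′ to 3′ on the strand of the gene and leave out annotated exons. Capitals mark letters searched for: for GATA the strings AGATAA with its variant AGATAG and TGATAA with its variant TGATAG, for ETS factors either CCGGAA or the variant CAGGAA, for RUNX either TGTGGT or the variant TGCGGT, and for NF-E2 the string TGCTGAG, each on either strand. None of these strings contains another.

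F2r, chr13:95618488-95618716, minus strand: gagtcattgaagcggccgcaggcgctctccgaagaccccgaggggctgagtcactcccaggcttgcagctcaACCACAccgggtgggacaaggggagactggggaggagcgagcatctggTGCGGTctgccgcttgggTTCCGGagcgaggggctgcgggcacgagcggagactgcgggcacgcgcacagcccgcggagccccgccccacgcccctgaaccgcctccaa
F2rl2, chr13:95696670-95696852, plus strand: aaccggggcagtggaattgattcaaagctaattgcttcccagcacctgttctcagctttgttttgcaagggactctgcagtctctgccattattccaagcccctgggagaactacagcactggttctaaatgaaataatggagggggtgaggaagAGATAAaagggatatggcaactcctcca
Plek, chr11:17008719-17008968, minus strand: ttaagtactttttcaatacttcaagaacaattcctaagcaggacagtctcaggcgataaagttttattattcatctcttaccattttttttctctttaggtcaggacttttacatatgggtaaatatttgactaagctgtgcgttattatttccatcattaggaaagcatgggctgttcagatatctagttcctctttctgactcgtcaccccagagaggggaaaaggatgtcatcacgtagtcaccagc
Gp1ba, chr11:70638872-70639121, plus strand: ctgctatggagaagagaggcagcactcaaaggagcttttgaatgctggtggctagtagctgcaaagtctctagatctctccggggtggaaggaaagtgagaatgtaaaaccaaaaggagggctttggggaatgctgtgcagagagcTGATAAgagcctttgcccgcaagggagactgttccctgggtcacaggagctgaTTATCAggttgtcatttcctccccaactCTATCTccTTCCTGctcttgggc
Gp5, chr16:30310782-30311031, minus strand: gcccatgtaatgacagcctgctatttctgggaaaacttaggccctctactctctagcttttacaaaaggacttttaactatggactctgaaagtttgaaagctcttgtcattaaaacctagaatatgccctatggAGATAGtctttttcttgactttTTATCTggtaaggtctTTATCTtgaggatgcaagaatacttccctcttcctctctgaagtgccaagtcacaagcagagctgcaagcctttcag
Gp9, chr6:87777820-87778069, plus strand: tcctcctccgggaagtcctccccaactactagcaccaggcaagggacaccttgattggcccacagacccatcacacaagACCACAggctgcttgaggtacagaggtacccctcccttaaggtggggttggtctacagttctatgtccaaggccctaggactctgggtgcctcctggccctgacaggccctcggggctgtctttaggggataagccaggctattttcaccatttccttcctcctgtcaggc

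The *F2r* window held 2 RUNX matches and 1 ETS match, and the *F2rl2* window 1 GATA match. The windows of *Gp1ba* and *Gp5* held 3 GATA matches each. No searched letters were present in the *Plek* window. That window precedes a RefSeq start but lies inside the longer *Plek* gene of the GENCODE annotation (chromosome 11, 16971206 to 17052381). Of the 32 genes, 24 had a promoter in the table. GATA letters were in 7 of these (29.2%, against 26.5% of all 32851 windows), ETS letters in 11 (45.8% against 35.1%), RUNX letters in 3 (12.5% against 18.6%) and NF-E2 letters in 1 (4.17% against 6.21%). The member with NF-E2 letters was *Ltbp1*, which also held ETS letters and is not printed above. These shares are a description of the sequences only.

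Levels in control HSCs were compared between genes per length, as TPM (counts per kilobase of gene, scaled so that each library has the same total) computed from the deposited counts and gene lengths. *Pf4*, the gene of platelet factor 4, was the highest member at 361 ± 30.8 TPM (SD, n = 5), above 98.3% of tested genes. *Tbxas1*, thromboxane A synthase, followed at 327 ± 18.6 TPM, and after a gap came *F2r* (164 ± 14.3 TPM), *Itga2b* (163 ± 14.8 TPM), *Gp9* (160 ± 27.0 TPM), *Ptgs1* (159 ± 10.4 TPM), *Mmrn1* (150 ± 31.9 TPM) and *Plek* (149 ± 19.1 TPM). The order among the last 6 is not resolved, since neighbours differed by less than their SD. Over all 29 genes, 5 of 28 steps between neighbours exceeded the SD. *Vwf* was in the middle of the list at 37.8 ± 6.05 TPM, near the median of all tested genes (37.4 TPM), and 17 members lay above that median. At the bottom were *Pdgfb* (4.48 ± 0.838 TPM), *Alox12* (4.01 ± 0.923 TPM) and *Ltbp1* (3.16 ± 0.983 TPM). *Tubb1*, the β1-tubulin of platelets and a late megakaryocyte gene, was also low (6.60 ± 1.67 TPM).

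**Figure D1:**
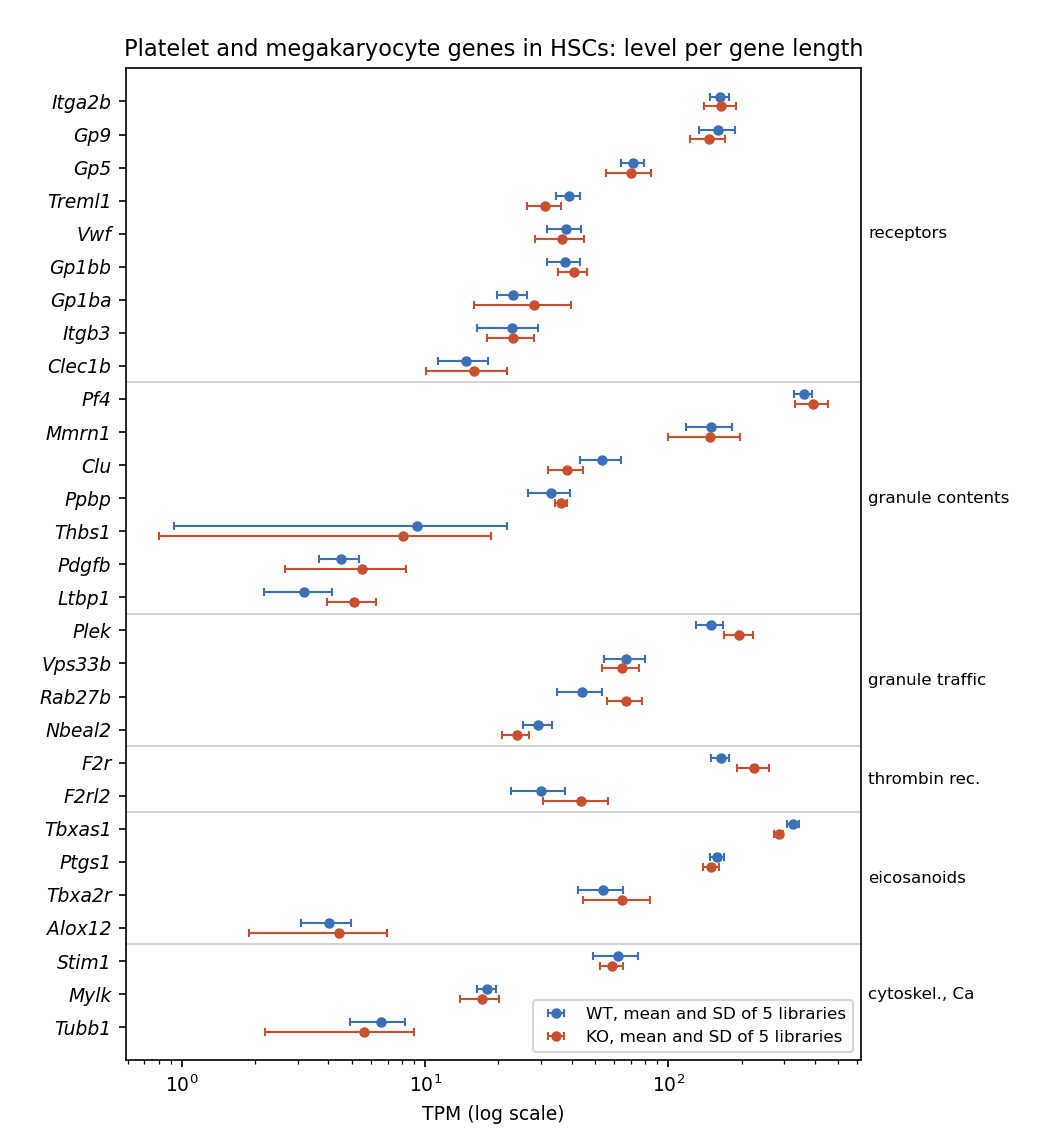
Level per gene length of the 29 tested members in TPM (log axis), grouped by role, with points for the mean and bars for the SD of 5 WT (blue) and 5 KO (red) libraries. *Pf4* and *Tbxas1* stand highest, levels span from 3.16 to 361 TPM in WT, and most red and blue bars overlap; the lower bars of *Thbs1*, whose SD exceeds its mean, are drawn shortened.

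The 29 tested members had a median log2 fold change (Cited2CKO minus Cited2CTL) of 0.02, beside 0.01 for all tested genes, with 15 above and 14 below 0. The median size of the change, regardless of sign, was 0.14 against 0.17 over all tested genes, and 18 members were within 0.25 of no change. At an unadjusted p under 0.05, 8 members (27.6%) differed, against a background of 12.9%. Higher in Cited2CKO were 5 (17.2%, background 5.8%), namely *F2r*, *Rab27b*, *Plek*, *Ltbp1* and *F2rl2*. Lower were 3 (10.3%, background 7.08%), namely *Tbxas1*, *Clu* and *Nbeal2*. CPM did not overlap between the genotypes for 2 members (6.90%, background 3.33%), *F2r* and *Plek*, both with Cited2CKO above (background 1.35%). DESeq2 called 3 of 29 (10.3%) against 2.43% of all genes it tested, all higher (background 1.05%), and no member lower. The members were chosen with earlier results of these data known, so these shares are a description only. In bulk RNA a larger share of cells of 1 kind and more RNA per cell cannot be told apart.

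**Figure D2:**
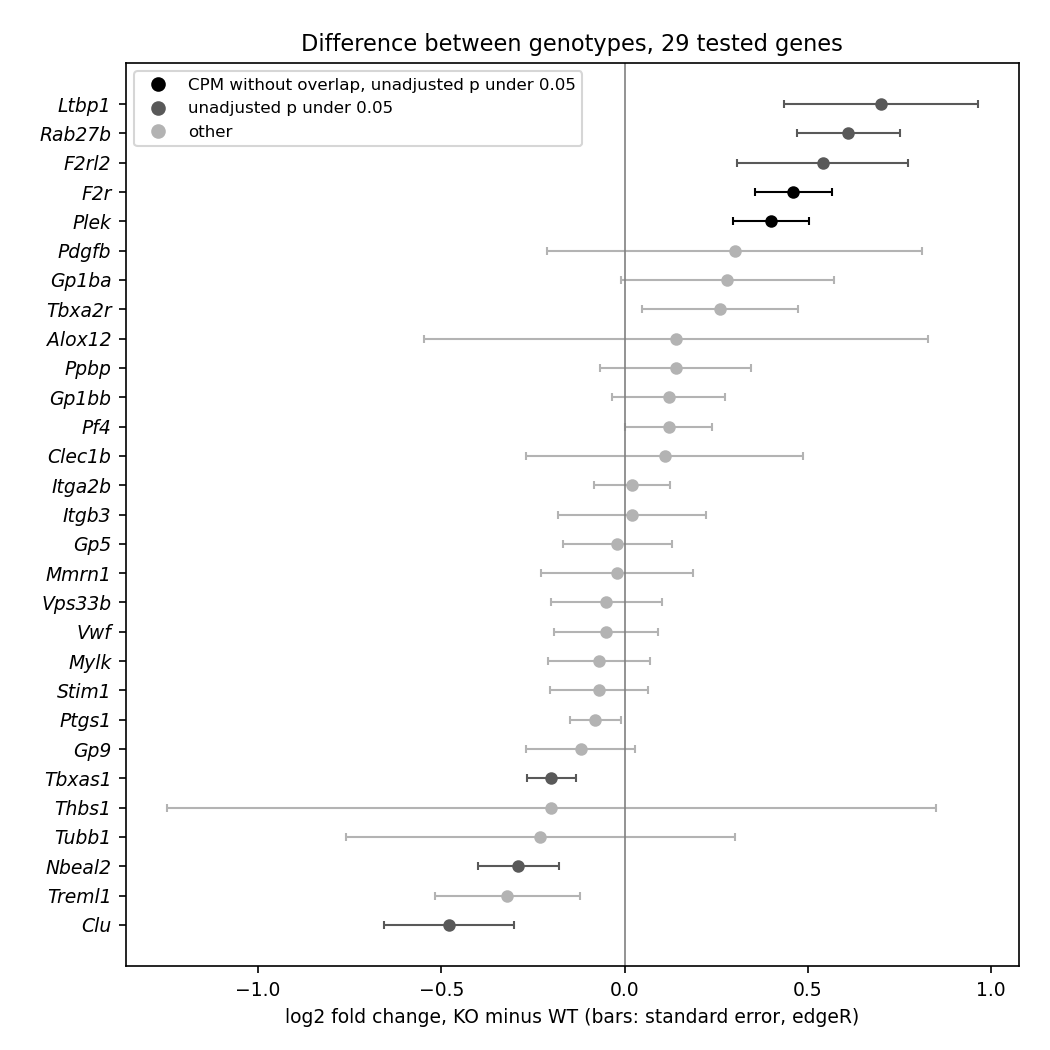
Log2 fold change of each tested member, KO minus WT, with bars for the standard error of edgeR's fit; black points mark genes whose CPM did not overlap, dark grey points the others with an unadjusted p under 0.05. *Ltbp1* (0.70) is the highest and *Clu* (-0.48) the lowest, and 18 of 29 points lie within 0.25 of 0.

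Both thrombin receptors of the list were higher in Cited2CKO HSCs at an unadjusted p under 0.05. *F2r* encodes PAR1, a G-protein-coupled receptor that thrombin cleaves, and *F2rl2* encodes PAR3, a thrombin-binding cofactor on mouse platelets. They are neighbours on chromosome 13 of GRCm38 (*F2r* 95601803 to 95618487, *F2rl2* 95696853 to 95702739), with 78365 bases between them. *F2r* was at 255, 229, 216, 241 and 196 CPM in WT1 to WT5 and at 314, 344, 261, 378 and 270 CPM in KO1 to KO5. Each Cited2CKO library was above each Cited2CTL library, and the gap between the groups was narrow, from 255 to 261 CPM. Its log2 fold change of 0.46 had a standard error of 0.105 (edgeR, adjusted p = 0.0904), and DESeq2 gave an adjusted p of 0.00293. *F2rl2* was at 32.8, 35.6, 18.5, 30.2 and 38.1 CPM in WT1 to WT5 and at 52.5, 55.9, 31.9, 57.0 and 28.8 CPM in KO1 to KO5. KO1, KO2 and KO4 were above all controls, while KO3 and KO5 fell in their range (log2 fold change 0.54, standard error 0.234, adjusted p = 0.361). PAR1 serves thrombin signaling in human platelets, whereas mouse platelets signal through PAR4. The PAR4 gene is *F2rl3*, which was not a member and showed a log2 fold change of -0.12 (adjusted p = 0.718; 0.09 after the correction for GC content described below).

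Genes of granule formation and release were divided. *Rab27b* encodes a small GTPase needed for dense granule number and secretion (chromosome 18). It was at 114, 145, 110, 173 and 116 CPM in WT1 to WT5 and at 165, 229, 174, 246 and 191 CPM in KO1 to KO5. Of the Cited2CKO libraries, KO1 lay below the highest control, WT4, and the others above it. The log2 fold change was 0.61 (standard error 0.141, adjusted p = 0.0948, edgeR), with an adjusted p of 0.00486 in DESeq2. *Plek*, pleckstrin, the major protein kinase C substrate of platelets, was at 207, 285, 266, 271 and 259 CPM in WT1 to WT5 and at 299, 401, 310, 383 and 308 CPM in KO1 to KO5. The groups did not overlap (log2 fold change 0.40, standard error 0.103, adjusted p = 0.118; 0.0125 in DESeq2). Exons of *Plek* overlap those of *Cnrip1* on the opposite strand, and the use of strand in counting was not given in the sources used here. *Nbeal2*, the gene whose loss causes gray platelet syndrome with empty α-granules, was at 99.7, 93.2, 124, 103 and 120 CPM in WT1 to WT5 and at 84.1, 98.0, 73.5, 85.0 and 100 CPM in KO1 to KO5. It was lower on average, with KO2 and KO5 within the control range (log2 fold change -0.29, standard error 0.111, adjusted p = 0.30). *Vps33b*, which also acts in α-granule biogenesis, was at 72.2 ± 12.7 and 69.7 ± 12.9 CPM (SD, n = 5 each; log2 fold change -0.05).

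**Figure D3:**
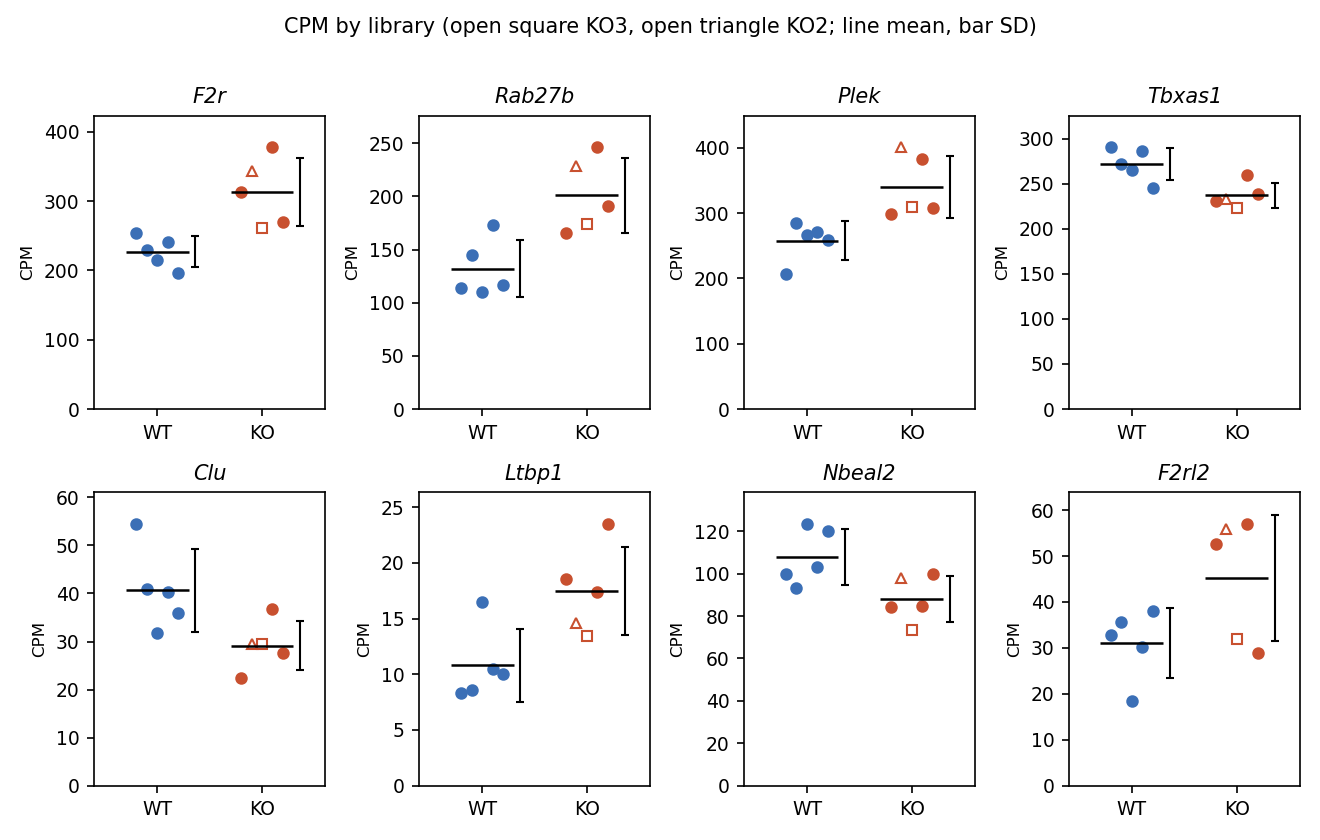
CPM of the 8 members with an unadjusted p under 0.05, 1 panel per gene, 1 point per library (blue WT, red KO, open square KO3, open triangle KO2), with a line at the mean and a bar for the SD (n = 5). All KO points lie above all WT points for *F2r* and *Plek* and overlap the WT points for the other 6.

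A per-library correction removed trends of the counts along GC content and length of the genes (the GC and length offset). With it the log2 fold changes of *F2r*, *Rab27b* and *Plek* were 0.39, 0.41 and 0.28 (adjusted p = 0.571, 0.748 and 0.71, edgeR). Those of *Ltbp1* and *F2rl2* were 0.76 and 0.45. The members with lower means had -0.24 (*Tbxas1*), -0.30 (*Clu*) and -0.11 (*Nbeal2*), with adjusted p-values of 0.645, 0.790 and 0.917. The 5 members higher at an unadjusted p under 0.05 had a GC content of 37.9 to 52.7% and the 3 lower ones 47.9 to 59.9%, beside a median of 52.1% for tested members and 48.8% for all tested genes. Without KO2 and KO3, the libraries that stood apart, *F2r*, *Rab27b* and *Plek* had log2 fold changes of 0.50, 0.60 and 0.36 (adjusted p = 0.166, 0.229 and 0.316). With only KO3 left out these were 0.52, 0.65 and 0.43 (adjusted p = 0.0518, 0.0938 and 0.128). With only KO2 left out they were 0.42, 0.55 and 0.33 (adjusted p = 0.201, 0.225 and 0.284).

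Granule contents and secreted proteins gave 1 higher and 1 lower gene at an unadjusted p under 0.05 among 7. *Ltbp1*, which binds latent TGF-β, was at 8.36, 8.59, 16.5, 10.5 and 10.1 CPM in WT1 to WT5 and at 18.5, 14.6, 13.5, 17.3 and 23.5 CPM in KO1 to KO5. WT3 alone of the controls lay within the Cited2CKO range (log2 fold change 0.70, standard error 0.264, adjusted p = 0.297). *Clu*, clusterin, a chaperone stored in α-granules, was at 54.5, 40.9, 31.8, 40.2 and 35.9 CPM in WT1 to WT5 and at 22.3, 29.4, 29.6, 36.8 and 27.6 CPM in KO1 to KO5. Only KO4 reached the control range (log2 fold change -0.48, standard error 0.177, adjusted p = 0.283). *Pf4*, a chemokine that marks the megakaryocyte lineage, was at 92.0, 98.8, 77.9, 85.3 and 91.5 CPM in WT1 to WT5 and at 88.7, 101, 75.6, 118 and 103 CPM in KO1 to KO5. The groups overlapped, with KO3 the lowest and KO4 the highest of all 10 (log2 fold change 0.12, standard error 0.118, adjusted p = 0.705). *Ppbp*, the chemokine gene next to *Pf4* on chromosome 5 (2371 bases between them), was at 14.9 ± 2.83 and 16.5 ± 0.878 CPM (SD, n = 5 each).

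*Mmrn1*, multimerin, which carries factor V in α-granules, was abundant and variable. It ranged from 227 to 401 CPM in Cited2CTL and from 190 to 405 CPM in Cited2CKO libraries, with means of 294 ± 67.8 and 290.1 ± 96.9 CPM. *Pdgfb*, a growth factor gene, was at 4.55 to 7.02 CPM in controls and at 0.951 CPM in KO1 but 6.14 to 9.91 CPM in the other Cited2CKO libraries. *Thbs1*, thrombospondin, varied most of all members, at 2.67, 76.3, 11.2, 15.1 and 7.44 CPM in WT1 to WT5 and at 0, 26.7, 61.5, 6.17 and 3.92 CPM in KO1 to KO5. The count of 0 in KO1 allows up to 0.713 CPM. The highest 4 values were those of WT2, KO3, KO2 and WT4, the libraries with high *Xist*, as seen after the values were known. The part of sex or of cells other than HSCs in this spread was not tested.

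None of the 9 tested adhesion and activation receptor genes had an unadjusted p under 0.05, and their log2 fold changes lay between -0.32 and 0.28. With the GC and length offset the range was -0.15 to 0.41, and *Gp1bb* (0.41, adjusted p = 0.571) and *Itga2b* (0.26, adjusted p = 0.656) were higher at an unadjusted p under 0.05. *Itga2b*, the αIIb integrin subunit (CD41), was at 225, 272, 240, 222 and 219 CPM in WT1 to WT5 and at 206, 235, 223, 308 and 224 CPM in KO1 to KO5. Except for KO4 the Cited2CKO libraries lay at or below the control mean (log2 fold change 0.02, standard error 0.103, adjusted p = 0.955, and -0.09 without KO4). *Itgb3*, its β3 partner, was at 55.0 ± 14.8 and 55.9 ± 12.3 CPM (SD, n = 5 each). *Vwf*, the ligand of GPIb and a marker of platelet-primed HSCs, ranged from 112 to 163 CPM in Cited2CTL and from 113 to 188 CPM in Cited2CKO libraries, with KO5 the highest of all 10 (log2 fold change -0.05, standard error 0.142, adjusted p = 0.924).

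The GPIb-IX-V subunits, whose promoters are printed above for *Gp1ba*, *Gp5* and *Gp9*, had adjusted p-values of 0.730 to 0.963 in edgeR. *Gp9* was at 44.5, 68.7, 54.4, 55.1 and 50.1 CPM in WT1 to WT5 and at 44.0, 44.3, 62.2, 56.1 and 44.0 CPM in KO1 to KO5. KO1, KO2 and KO5 were under the lowest control (log2 fold change -0.12, standard error 0.149, adjusted p = 0.773, and 0.06 with the GC and length offset). *Gp5* was at 65.8 ± 7.12 and 64.8 ± 13.7 CPM, and *Gp1bb* at 32.8 ± 4.73 and 35.8 ± 5.00 CPM (SD, n = 5 each). *Gp1bb* shares exon sequence with *Sept5* on the same strand, so its counts are uncertain. *Gp1ba*, the subunit that contacts von Willebrand factor, was at 23.4 to 31.9 CPM in controls, and at 34.2, 32.6, 49.2, 33.8 and 10.6 CPM in KO1 to KO5. Thus 4 Cited2CKO libraries were above all controls and KO5 was below them all (log2 fold change 0.28, standard error 0.290, adjusted p = 0.730).

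The remaining receptors sit on activated platelets or bind podoplanin and collagen. *Treml1*, a receptor of α-granule membranes, was at 18.7, 24.0, 18.5, 19.0 and 19.2 CPM in WT1 to WT5 and at 15.9, 16.8, 11.6, 18.8 and 16.8 CPM in KO1 to KO5. KO4 alone of the Cited2CKO libraries reached the control range (log2 fold change -0.32, standard error 0.198, adjusted p = 0.535). *Clec1b*, the CLEC-2 receptor of podoplanin, was at 7.21 ± 1.56 and 7.82 ± 2.86 CPM (SD, n = 5 each), and its exons overlap those of *Clec9a*. *Gp6*, the collagen receptor gene, had 0 to 2 counts per Cited2CTL library and 0 to 8 per Cited2CKO library, too few to test. Over the 9 genes checked as markers of committed megakaryocytes or platelets, all of them members, the summed CPM was 264 to 316 in Cited2CTL and 247 to 330 in Cited2CKO libraries, lowest in KO5 and highest in KO4.

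Among genes of thromboxane and related lipids, the synthase *Tbxas1* was lower at an unadjusted p under 0.05. It was at 291, 272, 265, 286 and 246 CPM in WT1 to WT5 and at 231, 233, 223, 260 and 238 CPM in KO1 to KO5. Only KO4 exceeded the lowest control, WT5 (log2 fold change -0.20, standard error 0.0674, adjusted p = 0.243). *Ptgs1*, the cyclooxygenase that aspirin blocks in platelets, was at 186, 198, 177, 205 and 190 CPM in WT1 to WT5 and at 178, 182, 177, 168 and 202 CPM in KO1 to KO5. It was the steadiest gene of the list together with *Tbxas1*, with coefficients of variation of 5.60% and 6.64% in controls (log2 fold change of *Ptgs1* -0.08, standard error 0.0697, adjusted p = 0.691). *Tbxa2r*, the thromboxane receptor, was at 28.1, 49.0, 47.0, 47.5 and 44.4 CPM in WT1 to WT5 and at 55.1, 55.4, 30.7, 44.4 and 74.0 CPM in KO1 to KO5. KO5 was highest and KO3 near the lowest control (log2 fold change 0.26, standard error 0.214, adjusted p = 0.653). The value was 0.09 without KO5 and 0.56 with the GC and length offset (adjusted p = 0.878 and 0.599). *Alox12*, platelet 12-lipoxygenase, was at 3.72 to 6.47 CPM in controls and at 6.17 to 7.84 CPM in KO1 to KO4, but had no count in KO5, which allows up to 0.691 CPM.

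Of genes for the cytoskeleton and calcium entry, none of 3 tested had an unadjusted p under 0.05. *Stim1*, the sensor of calcium stores, was at 94.0 ± 19.2 and 89.4 ± 9.23 CPM, and *Mylk*, myosin light chain kinase, at 58.9 ± 5.82 and 56.1 ± 10.2 CPM (SD, n = 5 each). Exons of *Mylk* overlap 2 other counted genes on the opposite strand. *Tubb1* was at 2.53 to 5.02 CPM in Cited2CTL and 1.43 to 6.14 CPM in Cited2CKO libraries. *Myl9*, a myosin light chain gene, had at most 3 counts in any library.

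Single libraries shaped the spread within Cited2CKO. KO4 held the highest value of 6 members and a median deviation of 0.23 (log2) from each gene's mean over the 10 libraries, the largest of all. KO5 was highest for 6 members and lowest for 3, and its committed megakaryocyte and platelet markers had a median deviation of -0.24, against 0.25 in KO4 and 0.17 in KO3. KO1 was lowest for 7 members and WT1 for 6. The coefficient of variation was larger in Cited2CKO than in Cited2CTL libraries for 20 of 29 members (56.3% of all tested genes), with medians of 18.3% and 17.6%. Granulocyte-monocyte progenitor markers also differed between libraries, at 505 CPM summed in WT5 and 320 CPM in KO5 against 146 to 184 CPM in the rest. Their part in these deviations was not tested.

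**Figure D4:**
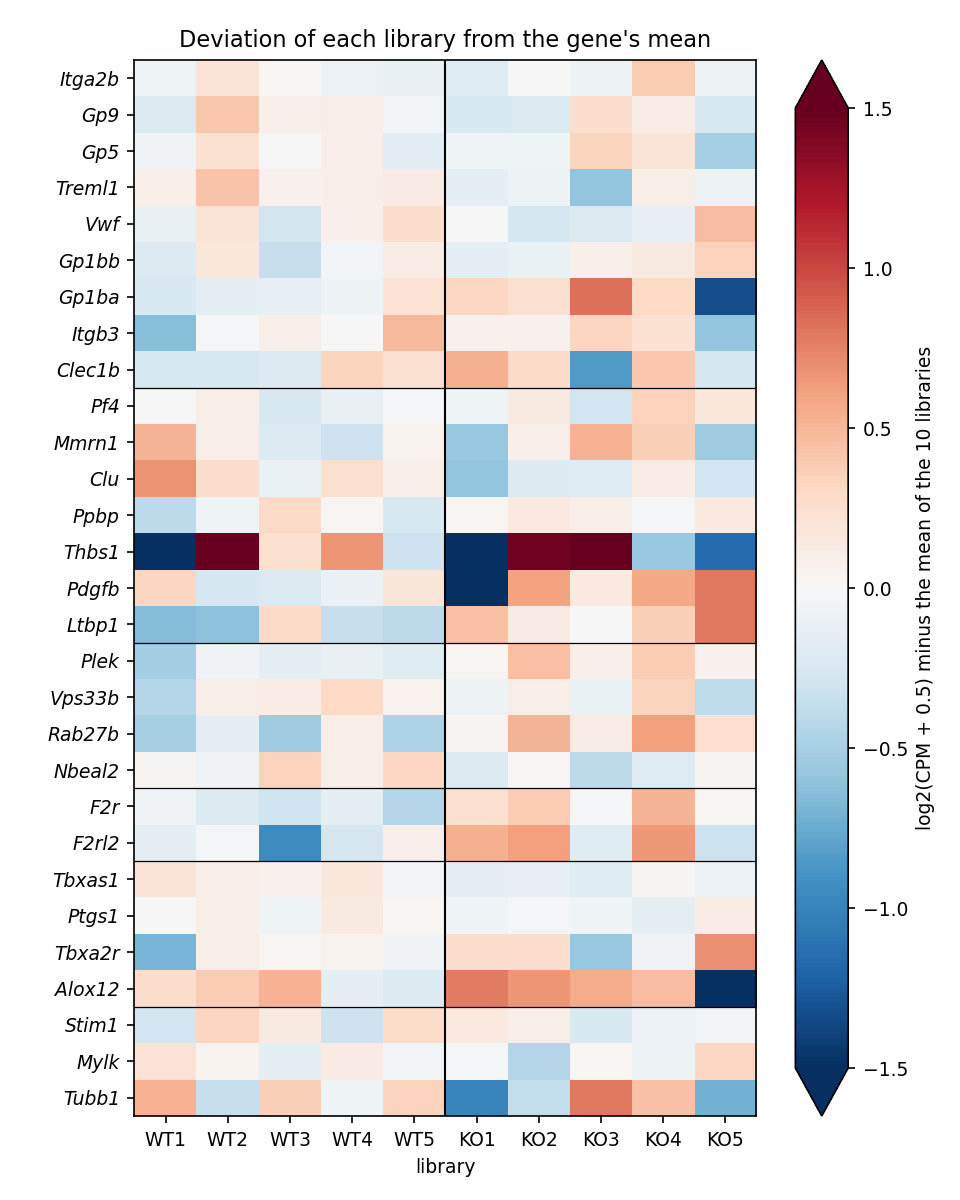
Deviation of each library from the mean of the 10 libraries, as log2(CPM + 0.5), for the 29 tested members (rows, grouped by role) in WT1 to WT5 and KO1 to KO5 (columns); red is higher, blue lower, and values past 1.5 are drawn at the end of the scale. *F2r*, *Plek* and *Rab27b* are mostly red in KO columns, *Thbs1* varies within both genotypes, and KO5 is blue for *Gp1ba* and *Alox12*.

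The wider platelet and megakaryocyte program was read from 6 further lists with 76 genes, of which 72 were tested. By edgeR 3 (4.17%) were called higher and none lower, and the median log2 fold change was 0.01. Of all tested genes 0.226% were called in both directions together, 17 higher and 15 lower. At an unadjusted p under 0.05, 11 (15.3%) were higher and 8 (11.1%) lower, against 5.8% and 7.08% of all tested genes. The lists were chosen with earlier results of these data known, so these shares are a description only. Of these 72, *Selp*, P-selectin, which moves from α-granules to the platelet surface, rose most. It was at 44.1, 85.1, 40.3, 93.8 and 55.1 CPM in WT1 to WT5 and at 216, 214, 129, 205 and 213 CPM in KO1 to KO5 (log2 fold change 1.61, standard error 0.221, adjusted p = 0.00727). Every Cited2CKO library was above every control, with KO3 the nearest to them. Its exons overlap *Gm16548* on the opposite strand. *P2ry1*, the ADP receptor that starts platelet shape change, rose from 41.0 ± 8.15 to 86.9 ± 7.02 CPM (SD, n = 5 each; log2 fold change 1.08, standard error 0.137, adjusted p = 0.00558). *Tpm4*, tropomyosin 4, which serves platelet production, rose from 49.1 ± 13.8 to 117 ± 27.7 CPM (log2 fold change 1.24, standard error 0.211, adjusted p = 0.0289). *P2ry1* was at 31.8 to 52.2 CPM in controls and 78.4 to 96.2 CPM in Cited2CKO libraries, and *Tpm4* at 28.1 to 65.2 and 69.3 to 136 CPM, so neither overlapped between the genotypes. With the GC and length offset the adjusted p was 0.0222 for *Selp*, 0.0362 for *P2ry1* and 0.10 for *Tpm4*. Without KO2 and KO3 it was 0.0129, 0.0305 and 0.0180.

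Of the other surface receptors, *Pear1*, which mediates platelet contact signals, showed a log2 fold change of -0.37 (adjusted p = 0.175), and *Itga2*, the collagen-binding integrin subunit, 1.14 (adjusted p = 0.291). Among the 10 genes of thrombopoietin signaling none was called. *Cish*, a STAT5 target that dampens cytokine signals, showed a log2 fold change of -0.49 (adjusted p = 0.158), and *Stat3*, a transcription factor that cytokine receptors activate, -0.22 (adjusted p = 0.229).

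**Figure D5:**
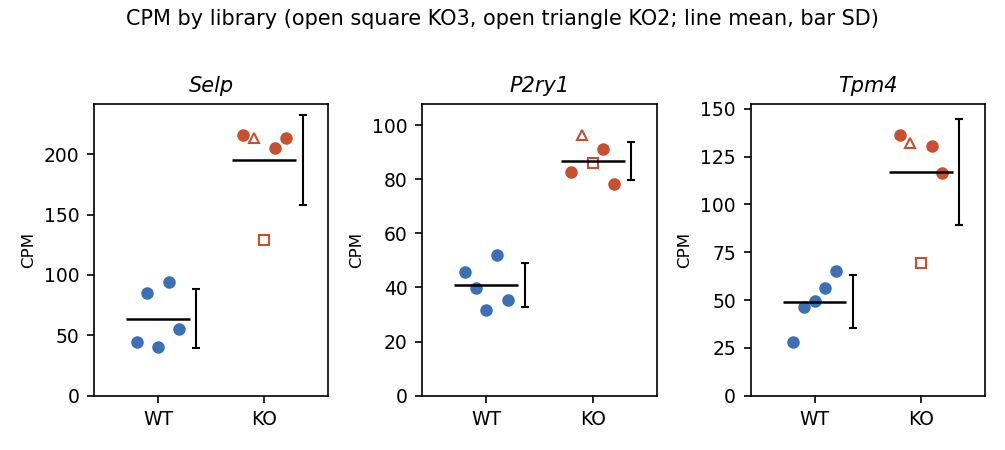
CPM of *Selp*, *P2ry1* and *Tpm4*, 1 point per library (blue WT, red KO, open square KO3, open triangle KO2), with a line at the mean and a bar for the SD (n = 5). All KO points lie above all WT points in each of the 3 panels, and KO3 is the lowest KO point for *Selp* and *Tpm4*.

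None of the 10 megakaryocyte transcription factor genes was called by edgeR. *Nfe2*, which drives late megakaryocyte maturation, showed a log2 fold change of -0.23 (adjusted p = 0.271) and *Fli1*, an ETS factor, 0.16 (adjusted p = 0.408). Median log2 fold changes were 0.12 for these factors, -0.16 for thrombopoietin signaling, 0.01 for the other surface receptors, -0.03 for other granule contents and traffic, 0.04 for integrin activation and cytoskeleton, and 0.08 for collagen and C-type lectin receptor signaling. In the last 3 lists the smallest p after *Tpm4* belonged to *Unc13d*, a granule priming factor (log2 fold change -0.33, adjusted p = 0.221), *Serpine2*, a thrombin inhibitor (0.76, adjusted p = 0.311), *Gucy1b1*, a subunit of the nitric oxide receptor (0.81, adjusted p = 0.318), and *Rap1b*, the GTPase that activates platelet integrins (0.21, adjusted p = 0.327).

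Markers of other cells that the sort could hold were read beside these results. The summed CPM of 10 lymphoid progenitor markers was 279 to 413 in Cited2CTL and 310 to 514 in Cited2CKO libraries. Basophil and mast cell markers summed to 294 to 412 and 340 to 496 CPM, all 6 genes included. Of these, *Fcer1a*, the α chain of the IgE receptor, was at 0 to 10.03 CPM in Cited2CTL and 15.4 to 53.5 CPM in Cited2CKO libraries without overlap (adjusted p = 0.0729 with edgeR and 0.0217 with DESeq2). *Cpa3*, a mast cell protease gene, followed with a log2 fold change of 0.98 (adjusted p = 0.0986). *Gata2*, also a regulator of HSCs, made up most of the sums, at 256.9 to 349.2 and 242.9 to 349.5 CPM. Its log2 fold change was -0.18 (adjusted p = 0.518). *Ms4a2* showed 0.78 (adjusted p = 0.734), and *Mcpt8* and *Prss34* were below the filter on low counts. Neutrophil markers ranged from 36.5 to 346 and from 57.9 to 213 CPM, and erythroid markers from 60.5 to 137 and from 73.8 to 91.3 CPM. The part of these cells in the platelet gene values was not tested.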

How the data were processed

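Single-end reads were mapped by the authors to GRCm38 (HISAT2) and summarised per gene (Rsubread). They deposited raw, unnormalized counts per gene symbol and a table of gene lengths. The annotation behind the counts, the strand setting and the handling of multi-mapping reads were not given in the sources used here. Members and lists were chosen with earlier results of these data known.

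Counts were filtered with filterByExpr, normalized by TMM and compared over all 14165 tested genes with edgeR 4.0.16 (R 4.3.3, quasi-likelihood test, Benjamini-Hochberg adjustment), in which the common biological coefficient of variation was 25.3%. Adjusted p-values in the text are from this fit unless DESeq2 1.42.0 (Wald test) is named. The p-values measure the spread between libraries, each described as from 1 mouse, although KO2 held both *Xist* and Y-linked transcripts. On simulated data of the same design, edgeR recovered 172 of 200 changed genes with 7 false calls among 13629 genes. The planted changes were larger than that of any tested member, so this does not measure power at the size of the members' changes. TPM used the deposited lengths. Floors of 3 counts cover counting error only. Values were given per library for members without overlap, the 12 with the smallest p and the 5 with the highest TPM in Cited2CTL, and of other lists for called genes and at most 3 with the smallest p. Genes and values named outside this rule (*Thbs1*, *Gp1ba*, *F2rl3*) were chosen after their values were seen. Positions were from GENCODE M21 (GRCm38). Alternatives were DESeq2, its size factors, other filters, limma-voom (version 3.58.1), a block for replicate number, a GC and length offset (loess, span 50%; 98.1% of genes had both) and each library left out; those chosen after seeing the data are named with the limits. Some genes of the further lists are not reported here.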

Additional observations from a re-analysis of the deposited data

Results flagged for a closer look

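Among the 29 tested members, 58 groups of 5 libraries were checked for a value far from the others, with a gap to its nearest neighbour of over 0.71 of the group's range. Chance gives about 1 in 20, and 6 groups (10.3%) met it. *Itga2b* was at 308.1 CPM in KO4, the highest of its group (gap 0.717 of the range). *Treml1* was at 24.0 CPM in WT2 (gap 0.866), *Thbs1* at 76.28 CPM in WT2 (gap 0.831) and *Ltbp1* at 16.46 CPM in WT3 (gap 0.738), each the highest of its group. *Tbxa2r* was at 28.09 CPM in WT1 (gap 0.781), the lowest of its group. *Alox12* had a count of 0 (0 CPM) in KO5, the lowest of its group (gap 0.787).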

How the results depend on the processing

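No member was called by edgeR with other size factors, other filters, limma-voom, the offset, any left-out library, *Xist* as a covariate or without KO2 and KO3, and none was called lower under any alternative. Called higher were 3 members with DESeq2, 3 with DESeq2 without KO3 and 1 with the replicate number as a block (*Rab27b*, adjusted p = 0.0129). At an adjusted p under 0.1, edgeR called 2 members higher. The share of all genes at that threshold was not counted, so these 2 have no background to be set against. The labels do not say whether the replicate number pairs libraries. Deviations from the group means correlated at 0.010, -0.095, 0.208, 0.003 and 0.193 between same-numbered libraries. The highest value of all pairs was 0.235, for WT3 and KO2, so these values do not settle a pairing. The log2 fold change of *Gp9* was 0.06 with the offset, against -0.12, and that of *Itga2b*, 0.02, ran from -0.09 to 0.07 as each library was left out and was 0.26 with the offset. The cause of these changes was not tested. Over all genes, calls (higher and lower) were 17 and 15 with edgeR, 146 and 192 with DESeq2, and 164 and 164 with DESeq2 without KO3. They were 15 and 9 with the block, 5 and 3 with the offset, and 25 and 19 with at least 10 counts in every library. As each library was left out they were 5 to 27 and 3 to 18. The median log2 fold change of members was -0.05 to 0.07 under all alternatives. *Xist* as a covariate, DESeq2 without KO3 and leaving out KO2 and KO3 were chosen after seeing the data. Depth limited genes with few counts, such as *Gp6*, *Myl9*, *Tubb1*, *Alox12* and *Pdgfb*.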
